A study of Mus musculus with 4 samples.

Results

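The Notch genes followed here were 3 receptors (Notch1, Notch2 and Notch3) and 7 direct targets (Hes1, Dtx1, Ptcra, Heyl, Hey1, Nrarp and Trib2), 10 of the 18193 genes with a probe set of their own, measured in double positive thymocytes (cells carrying both CD4 and CD8) with and without a Cre transgene that targets Ikaros. All were represented by every probe set whose single gene symbol in the platform annotation is one of these names: 19 probe sets of 45037 on the array, 6 for the receptors and 13 for the targets. One group was Ikf/f CD4-Cre+ (Cre-positive, 2 mice), in which Cre recombinase driven by Cd4 regulatory sequences is meant to delete the floxed Ikzf1 gene, which encodes Ikaros. It was set against Ikf/f CD4-Cre- mice (Cre-negative, 2 mice), which carry the same floxed alleles without Cre. Each mouse, separately numbered in the labels, gave 1 Affymetrix array. The sources used here do not give the age of the mice or how the cells were isolated. All mice were Ikf/f, so effects of Cre itself and of Ikaros loss cannot be told apart.

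Notch receptors are membrane proteins that ligands on neighbouring cells open to cleavage, first by an ADAM protease and then by gamma-secretase. The freed intracellular part enters the nucleus, binds the DNA-binding protein Rbpj and, with Mastermind coactivators, switches on target genes. In the thymus Notch1 signalling commits progenitors to the T lineage and drives the double negative stage, and it declines as cells pass the pre-T cell receptor checkpoint and become double positive. Ikaros is a zinc finger protein that recognises a DNA core, TGGGAA, which also lies within the sequence that Rbpj prefers, GTGGGAA, and mouse thymic leukaemias lacking Ikaros are known for activated Notch1.

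Values are log2 signals that the authors made with RMA, so a difference of 1 is a doubling. Ikzf1 fell by 1.53 ± 0.16 (moderated standard error, SE) on its brighter probe set, which read 10.80 and 10.62 in Cre-positive samples 1 and 2, against 12.40 and 12.08 in Cre-negative samples 1 and 2 (limma adjusted p = 0.0346). A second Ikzf1 probe set differed by -0.22. The deleted part of Ikzf1 and the place of the probes are unknown here, so neither value measures the deletion. Stage markers were high, with 6 measured for the double positive stage: Cd4, Cd8a, Cd8b1, Rag1, Rag2 and Cd1d1. They averaged 11.63 and 11.73 in Cre-positive mice and 11.96 and 12.03 in Cre-negative mice. The brightest probe set of each was lower on both Cre-positive arrays, where 21.8% of all tested probe sets were, and 0 passed in limma. For Rag1 the nearest arrays of the groups read 13.41 and 13.42, and for Cd4 10.47 and 10.48. The widest gap was 0.46, for Cd1d1. Dimmer probe sets of Cd4 and Cd8a were not all lower. Cre-negative sample 2 stood apart: the inactive X chromosome transcript Xist read 12.75 there and 4.73 to 5.37 on the other arrays, the pattern of a female. Values without this array are given beside several of the results. Array medians ran from 5.19 to 5.25. The sources used here do not say whether the arrays were run together, and if each group was run on its own, run and genotype cannot be told apart.

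Several receptors and targets read higher on both Cre-positive arrays than on either Cre-negative array, but no probe set of the 10 genes passed the test over all probe sets. Both Notch1 probe sets, 1 of 2 for Notch2, 1 of 2 for Dtx1 and the Ptcra probe set had the widest gaps between the groups, at 1.77 to 3.82 times the mean Cre-negative signal. Hes1 and Heyl had narrower gaps, while Nrarp, Hey1 and Trib2 showed small differences or arrays that overlapped. Of the 19 probe sets, 15 reached the signal filter (a mean of at least 4.76 over the 4 arrays) and were tested; all 10 genes had at least 1 of them. In limma, 0 of the 15 passed at an adjusted p under 0.05, where 0.868% of the 20967 tested probe sets passed (182, with 134 higher and 48 lower in Cre-positive mice). With probe sets of no or several gene symbols included, the balance turned to 295 higher and 441 lower. At an unadjusted p under 0.05, 7 of the 15 were higher and 1 was lower in Cre-positive mice, where 12.1% of all tested probe sets were higher and 9.06% lower. Arrays of the groups were fully separated for 9 tested members with higher and 2 with lower Cre-positive signal, where 31.5% and 21.8% of all tested probe sets separated in those directions. The median difference over all 19 members was 0.35, against 0.02 over all 34945 probe sets with 1 gene symbol. These genes were chosen with earlier results of these arrays known, so the counts describe them and are no test of the group. Thymocytes were measured in bulk, so more cells with a transcript and more transcript per cell cannot be told apart.

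**Figure D1:**
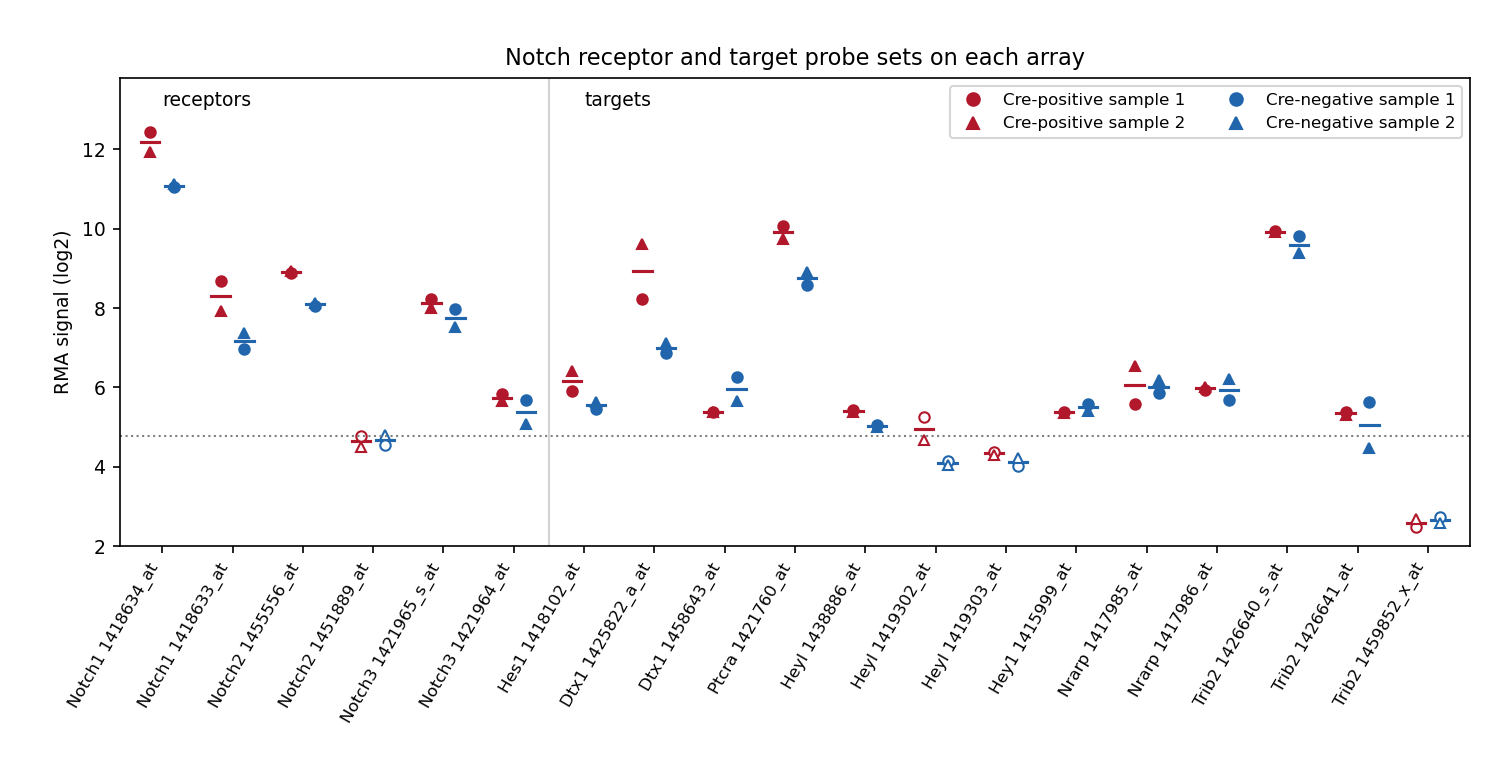
RMA signal (log2, vertical axis) of the 19 probe sets on each of the 4 arrays, Cre-positive left of Cre-negative, with circles for sample 1, triangles for sample 2 and bars at the group means; open symbols are probe sets below the signal filter (dotted line, 4.76). Notch1, the first Notch2 probe set, the first Dtx1 probe set and Ptcra show the widest gaps between the groups.

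Notch1, the receptor that T lineage commitment depends on, was read by 2 probe sets that gave nearly the same difference. Probe set 1418634_at read 12.45 and 11.93 in Cre-positive samples 1 and 2, against 11.05 and 11.12 in Cre-negative samples 1 and 2. The lowest Cre-positive array lay 0.80 above the highest Cre-negative array, more than the spread within either group. The means were 12.19 ± 0.37 and 11.08 ± 0.05 (SD, n = 2 each), a difference of 1.10 ± 0.20 (SE) or 2.15-fold (95% interval 1.53 to 3.02; limma adjusted p = 0.0663). Probe set 1418633_at read 8.67 and 7.93 in Cre-positive mice and 6.97 and 7.37 in Cre-negative mice, a difference of 1.13 ± 0.28 (limma adjusted p = 0.108). Without Cre-negative sample 2 that difference was 1.33. Cre-positive sample 1 was the highest array on both probe sets. The sources used here do not place the probes along the transcript, and these values do not tell full-length from shorter Notch1 transcripts.

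Notch2, a receptor best known in marginal zone B cells and in myeloid cells, had closely matched replicates. Probe set 1455556_at read 8.89 and 8.94 in Cre-positive mice, against 8.06 and 8.12 in Cre-negative mice. The SD was 0.04 in each group while the groups were 0.77 apart, and the difference was 0.83 ± 0.12 (SE), or 1.77-fold (95% interval 1.44 to 2.17; limma adjusted p = 0.0548). This probe set sat at the threshold: tested among 11639 genes, each represented by its brightest probe set, Notch2 passed with an adjusted p of 0.0444 in limma, the 1 gene of the 10 that did, where 1.37% of genes passed. That call was lost when probe sets were averaged per gene, where Notch2 differed by 0.40 (limma adjusted p = 0.144), and with any single array left out (adjusted p from 0.136 to 0.213). It also passed, together with Ptcra, when all 25443 probe sets above the filter were tested whether or not they had a gene name (limma adjusted p = 0.0444 for Notch2 and 0.0472 for Ptcra). The other Notch2 probe set, 1451889_at, was below the filter, read 4.78 and 4.50 in Cre-positive mice and 4.54 and 4.80 in Cre-negative mice, and so showed no separation.

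Notch3, itself a known target of Notch1 in T cell precursors, showed differences close to the spread of its replicates. Probe set 1421965_s_at read 8.24 and 7.99 in Cre-positive mice, against 7.97 and 7.53 in Cre-negative mice, with a gap of 0.03 between the groups. Its difference was 0.37 ± 0.19 (SE; limma adjusted p = 0.338), and that of 1421964_at, whose arrays overlapped between groups, was 0.35 ± 0.22 (adjusted p = 0.435). Both values rested on the female mouse: without Cre-negative sample 2 they were 0.15 and 0.04.

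Ptcra encodes the alpha chain of the pre-T cell receptor, which pairs with the beta chain at the double negative stage and is shut down later in development. It read 10.08 and 9.74 in Cre-positive mice, against 8.58 and 8.91 in Cre-negative mice. All arrays of one group lay 0.82 or more from those of the other. The difference was 1.16 ± 0.18 (SE), or 2.24-fold (95% interval 1.63 to 3.08, limma adjusted p = 0.0591). Without Cre-negative sample 2 it was 1.33.

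Promoter sequence was at hand for 7 of the 10 genes (RefSeq, build GRCm38.p6). The 250 bases upstream of the start site are shown for the 4 genes with the widest separations, to set them against the core that Ikaros and Rbpj share. Capitals mark TGGGAA on either strand, and each sequence runs 5′ to 3′ toward the start site. Positions are chr17:46763713-46763962, minus strand for Ptcra, chr2:26503823-26504072, minus strand for Notch1, chr3:98013288-98013537, plus strand for Notch2 and chr5:120711670-120711919, minus strand for Dtx1.
Ptcra: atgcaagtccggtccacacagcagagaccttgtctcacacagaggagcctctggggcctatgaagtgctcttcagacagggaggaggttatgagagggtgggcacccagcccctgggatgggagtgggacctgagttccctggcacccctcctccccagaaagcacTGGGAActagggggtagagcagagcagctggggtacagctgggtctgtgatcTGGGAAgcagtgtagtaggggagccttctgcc
Notch1: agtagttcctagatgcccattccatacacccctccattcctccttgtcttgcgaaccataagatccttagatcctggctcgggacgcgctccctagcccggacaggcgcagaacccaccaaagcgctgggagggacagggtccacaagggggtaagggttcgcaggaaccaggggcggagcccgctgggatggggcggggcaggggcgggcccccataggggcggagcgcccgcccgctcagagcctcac
Notch2: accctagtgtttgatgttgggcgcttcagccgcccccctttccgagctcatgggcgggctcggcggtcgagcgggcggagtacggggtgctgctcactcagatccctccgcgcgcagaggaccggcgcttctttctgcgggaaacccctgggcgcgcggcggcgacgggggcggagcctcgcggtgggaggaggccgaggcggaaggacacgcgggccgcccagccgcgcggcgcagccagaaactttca
Dtx1: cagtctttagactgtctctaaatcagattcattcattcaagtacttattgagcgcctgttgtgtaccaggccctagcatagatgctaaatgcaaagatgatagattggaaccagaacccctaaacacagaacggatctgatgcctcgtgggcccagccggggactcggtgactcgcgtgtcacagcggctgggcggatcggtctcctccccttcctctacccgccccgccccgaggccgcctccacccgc
The Ptcra window held TGGGAA at 2 places, beginning 84 and 32 bases before the start site. The other 6 windows, those of Notch1, Notch2, Notch3, Dtx1, Nrarp and Trib2, held none on either strand. Over all 32851 promoter windows of this length 21.6% held TGGGAA, so 1 of 7 is near the general share. The longer GTGGGAA, which contains TGGGAA, was in 0 of the 7 and in 5.42% of all windows. A match is a run of letters and no evidence of binding, and sites outside these 250 bases were not searched.

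Dtx1, Deltex1, is a ubiquitin ligase that Notch signalling induces strongly in early T cells, and its 2 probe sets went opposite ways. Probe set 1425822_a_at read 8.24 and 9.61 in Cre-positive mice, against 6.86 and 7.13 in Cre-negative mice. Both Cre-positive arrays were higher, but they lay 1.37 apart, the widest replicate spread among the 19 probe sets for the Cre-positive group. The difference of 1.93 ± 0.44 (SE), or 3.82-fold with a 95% interval of 1.80 to 8.11, had a limma adjusted p of 0.0931. Without Cre-positive sample 2 it was 1.25 and without Cre-positive sample 1 it was 2.62. Probe set 1458643_at read 5.38 on both Cre-positive arrays, against 6.25 and 5.66 in Cre-negative mice, a difference of -0.57 ± 0.21 (adjusted p = 0.206). It was -0.28 without Cre-negative sample 1 and -0.87 without Cre-negative sample 2. Within each array, the signal of the first probe set minus that of the second was 2.86 and 4.23 in Cre-positive mice and 0.61 and 1.47 in Cre-negative mice. The suffix of the first marks a probe set that reads several transcripts of a gene, and the sources used here do not say which Dtx1 transcripts each one reads.

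Hes1, the transcriptional repressor that is the classical Notch target, read 5.92 and 6.41 in Cre-positive mice, against 5.46 and 5.63 in Cre-negative mice. The groups were 0.29 apart, less than the 0.49 between the Cre-positive arrays. The difference was 0.62 ± 0.19 (SE), or 1.54-fold (95% interval 1.10 to 2.14; limma adjusted p = 0.16).

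Heyl and Hey1 encode related repressors best known as Notch targets of vessels and heart. Heyl had 3 probe sets with non-overlapping groups, though 2 were below the filter. Tested probe set 1438886_at read 5.43 and 5.39 in Cre-positive mice, against 5.04 and 4.99 in Cre-negative mice, a difference of 0.40 ± 0.12 (SE; limma adjusted p = 0.144). Below the filter, 1419302_at read 5.24 and 4.67 in Cre-positive mice and 4.14 and 4.04 in Cre-negative mice, 1.82-fold with a gap of 0.52, and 1419303_at differed by 0.21. All 3 lay near the filter. Hey1 read 5.38 and 5.36 in Cre-positive mice, against 5.59 and 5.40 in Cre-negative mice, a difference of -0.12 ± 0.13 (adjusted p = 0.636) with a 95% interval of -0.45 to 0.20, and of -0.22 without Cre-negative sample 2.

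Nrarp, a small ankyrin repeat protein that binds the Notch complex and restrains it, is among the targets that follow Notch activity most closely in other tissues. Probe set 1417985_at read 5.57 and 6.55 in Cre-positive mice, against 5.85 and 6.18 in Cre-negative mice. The Cre-positive arrays were thus the lowest and the highest of the 4. Its difference was 0.05 ± 0.33 (SE; limma adjusted p = 0.954), and that of 1417986_at was 0.03 ± 0.19 (adjusted p = 0.952). Without Cre-negative sample 2 they were 0.21 and 0.29, and without Cre-negative sample 1 they were -0.12 and -0.23. Their 95% intervals, -0.78 to 0.88 and -0.46 to 0.51, leave room for a difference of the size seen for Hes1 on the first probe set but not for that of Notch1 or Ptcra.

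Trib2, a pseudokinase that is a Notch target in T cell leukaemia, read 9.93 and 9.92 in Cre-positive mice on 1426640_s_at, against 9.81 and 9.39 in Cre-negative mice. The groups were 0.11 apart, with the Cre-negative arrays 0.42 from each other. The difference was 0.33 ± 0.17 (SE; limma adjusted p = 0.344) and 0.12 without Cre-negative sample 2. Probe set 1426641_at overlapped between groups and differed by 0.30, but by -0.29 without that array, and 1459852_x_at, below the filter, read 2.48 to 2.74 on all arrays.

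**Figure D2:**
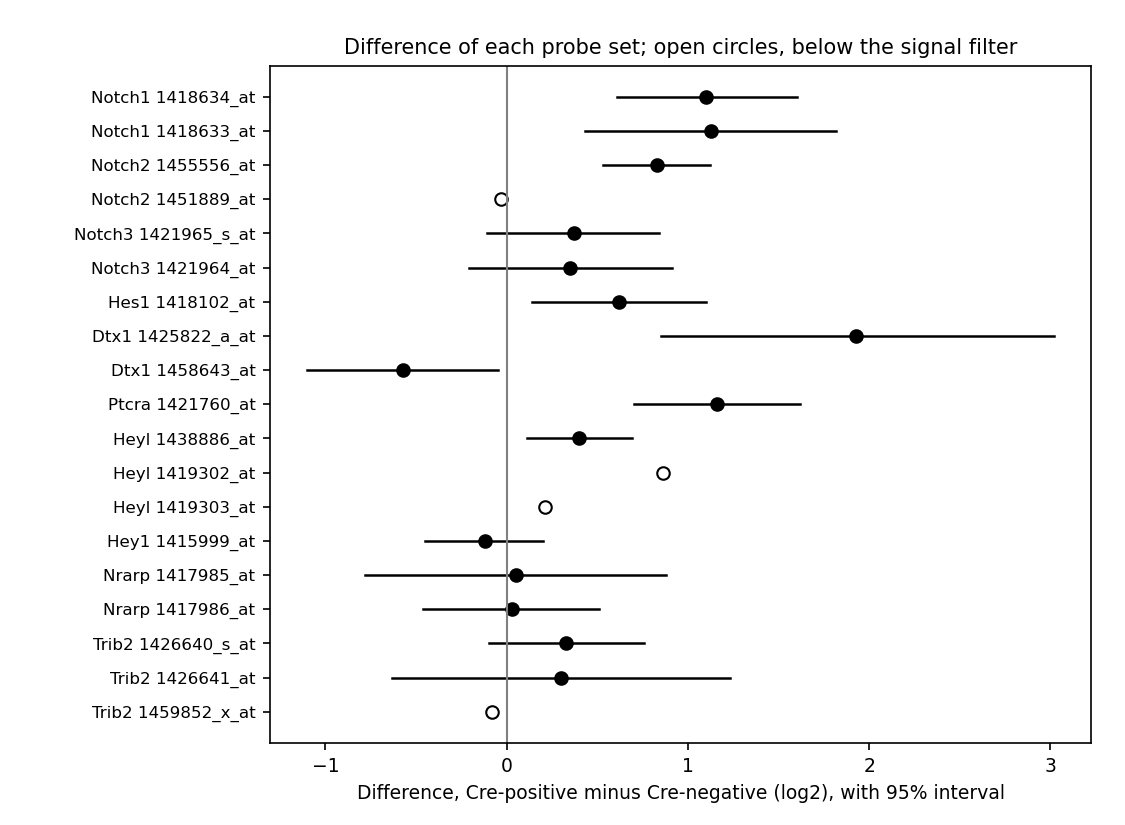
Difference in RMA signal, Cre-positive minus Cre-negative (log2, horizontal axis), for each of the 19 probe sets, with the moderated 95% interval from limma; open circles are the 4 probe sets below the filter, which were not tested. Intervals of both Notch1 probe sets, Notch2, Hes1, Dtx1 (in opposite directions), Ptcra and Heyl lie to one side of 0, before adjustment for the number of probe sets tested.

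The genes did not follow one shared order over the arrays. Among the Cre-positive mice, sample 1 had the higher signal for Notch1, Notch3, Ptcra and Heyl, while sample 2 had the higher signal for Hes1, Nrarp and the first Dtx1 probe set. Proliferation genes, 9 measured markers such as Mki67 and Top2a, averaged 9.30 and 10.15 in Cre-positive samples 1 and 2 and 8.63 and 9.61 in Cre-negative samples 1 and 2, so that sample 2 was higher in both groups and the groups overlapped. The part of this in the Hes1, Nrarp and Dtx1 values was not tested.

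At the double negative stage Notch1, Ptcra, Hes1 and Dtx1 are normally high. All 8 markers of that stage, Hes1, Dtx1 and Ptcra among them, averaged 6.49 and 6.89 in Cre-positive mice and 6.17 and 6.21 in Cre-negative mice. Without the genes followed here, the mean of the list did not separate the groups. The 5 markers left, Il2ra, Kit, Cd44, Igll1 and Il7r, averaged 5.54 and 5.87 in Cre-positive mice and 5.69 and 5.61 in Cre-negative mice. Il2ra and Il7r are also in the list of further T lineage targets of Notch, given below. Kit, the receptor of early progenitors, was below the filter, and Cd44 was lower on both Cre-positive arrays. Il7r was higher on both and was the 1 of the 5 that passed in limma (1.12, adjusted p = 0.0374). Macrophage and dendritic cell markers did separate: their 12 genes averaged 6.22 and 6.16 in Cre-positive mice, against 5.29 and 5.11 in Cre-negative mice. On both Cre-positive arrays 10 of 12 were higher, where 9311 of all 34945 probe sets with 1 gene symbol were. These 10 include Cd68 and Itgam, which were below the filter and had gaps of 0.04. On brightest probe sets 2 of the 12 rose in limma. They were the lysozyme gene Lyz2, by 1.85 (adjusted p = 0.0266), and the protease gene Ctss, by 2.98 (adjusted p = 0.0282). Dimmer probe sets also passed in limma for Csf1r (1.21, adjusted p = 0.0455), H2-Aa (1.77, adjusted p = 0.0492) and H2-Ab1 (0.90, adjusted p = 0.0492). The brightest probe sets of these genes differed by 0.19, 2.25 and 1.58 in that order, without passing. Stromal, epithelial and endothelial markers averaged 5.45 and 5.21 in Cre-positive mice and 4.75 and 4.78 in Cre-negative mice. In that list 3 of 10 were higher on both Cre-positive arrays, against the same 9311 of 34945, and Col1a1, Col3a1, Pdgfra and Cdh5 were below the filter. Pdgfrb, a receptor of pericytes and other mesenchymal cells, rose by 1.05 on its brightest probe set (limma adjusted p = 0.0498) and by 3.24 on another. The collagen gene Col1a2 differed by 4.52 (limma adjusted p = 0.101), the largest difference in the list, so the list mean leans on it. It read 11.55 and 8.01 in Cre-positive mice and 5.18 and 5.33 in Cre-negative mice. Krt8 differed by 0.43, Pecam1 by -0.04, Cdh5 by -0.10 and Epcam by -0.13. B cell markers, 4 measured, averaged 5.77 and 5.88 in Cre-positive mice and 5.60 and 5.52 in Cre-negative mice. On both Cre-positive arrays 3 of 4 were higher, against the same 9311 of 34945, and 0 passed in limma. The gaps were 0.42 for Ms4a1, 0.02 for Pax5 and 0.13 for Cd79a, which was below the filter. Cd79b, the brightest of the 4, overlapped between groups and differed by -0.08. The part of such cells in the Notch2, Hes1 and Heyl values was not tested.

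**Figure D3:**
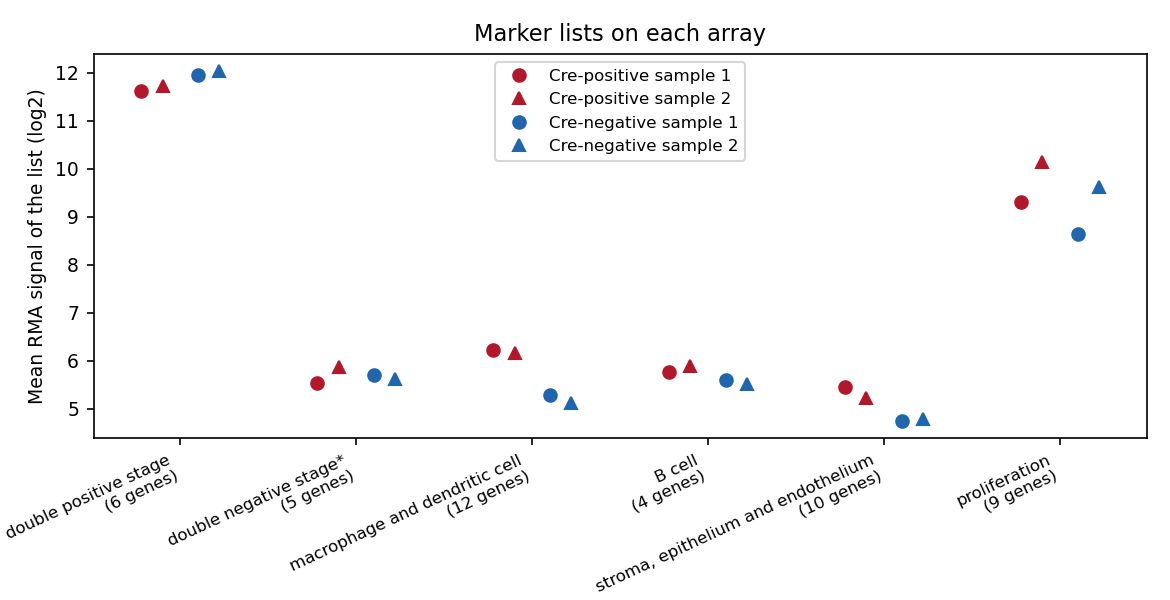
Mean RMA signal (log2, vertical axis) of each marker list on the 4 arrays, over the brightest probe set of each gene. Cre-positive is red and Cre-negative blue. The asterisk marks the double negative list without Hes1, Dtx1 and Ptcra. Macrophage and dendritic cell markers are separated by group (6.22 and 6.16 against 5.29 and 5.11), and proliferation markers are higher in sample 2 of each group.

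The rest of the pathway went both ways. Of 68 further genes in 7 lists (ligands with the receptor Notch4, processing enzymes, nuclear partners, turnover and other T lineage targets), 62 had probe sets. Of their probe sets, 124 reached the filter. In limma 2 of these rose and 0 fell, where 0.868% of all tested probe sets passed. At an unadjusted p under 0.05, 19 were higher and 13 lower, where 12.1% and 9.06% of all tested probe sets were; counts of single lists below are to be read against these shares. The median difference of these 124 was 0.04, the same as the 0.04 over all tested probe sets. The members' 15 tested probe sets had a median of 0.37.

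Probe sets of the ligands and of the remaining receptor, Notch4, were mostly below the filter. Of the 6 genes Dll1, Dll3, Dll4, Jag1, Jag2 and Notch4, only Dll4 and Jag2 reached it. In limma 0 of 3 tested probe sets passed (0 at an unadjusted p under 0.05). Jag2 differed by -0.13 and Dll4 by -0.19. Among enzymes that cut the receptors 0 of 18 probe sets passed (2 higher and 3 lower at an unadjusted p under 0.05). Furin, which cleaves Notch on its way to the surface, read 6.48 and 6.50 in Cre-positive mice and 5.95 and 5.90 in Cre-negative mice, a difference of 0.57 (limma adjusted p = 0.0808). The gamma-secretase subunit gene Ncstn differed by -0.71 on its brighter probe set and by 0.12 on the other. Aph1a differed by -0.25, with its other probe sets at -0.40 and 0.63, and Aph1b by 0.27. A probe set of the ADAM protease gene Adam17 that is not its brightest differed by -0.57 (adjusted p = 0.112). Of the enzymes that attach or extend sugars on Notch, Lfng differed by 0.27, Rfng by -0.22, Mfng by -0.15 and Poglut1 by 0.10, and 0 of 8 probe sets passed (0 at an unadjusted p under 0.05).

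Of the nuclear partners, none was called: in limma 0 of 19 tested probe sets of the transcription complex passed (4 higher and 2 lower at an unadjusted p under 0.05), with a median of 0.21. Rbpj, the DNA-binding partner of all Notch receptors, read 10.35 and 10.29 in Cre-positive mice, against 9.90 and 9.69 in Cre-negative mice, a difference of 0.52 ± 0.13 (SE; adjusted p = 0.112), and its other probe sets differed by 0.19 and 0.33. The acetyltransferase genes Kat2a and Ep300 differed by 0.63 and 0.21 and the coactivator gene Maml1 by 0.20. Other probe sets than the brightest differed by -0.67 for the acetyltransferase gene Kat2b (adjusted p = 0.0663), by -0.88 for Snw1 (adjusted p = 0.0824) and by 0.83 for the coactivator gene Crebbp (adjusted p = 0.0617), while the brightest of these genes differed by -0.02, 0.10 and 0.10 in that order. Of the corepressor genes 0 of 20 probe sets passed (2 higher and 3 lower at an unadjusted p under 0.05). The Groucho family gene Tle1 differed by 1.09 ± 0.16 (adjusted p = 0.0565) on 1 probe set and by 0.00 on the other, Tle4 by -0.32 and, on another probe set, by -1.35, Tle3 by 0.29, with others from -0.43 to 0.43, and Tle2 by -0.22.

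In these lists 2 genes rose. Dtx3l, a Deltex family ubiquitin ligase known as interferon-inducible, read 9.49 and 9.83 in Cre-positive mice on 1439825_at, against 8.32 and 8.27 in Cre-negative mice, and rose by 1.37 ± 0.15 (SE) or 2.58-fold (limma adjusted p = 0.037); its other probe set differed by 0.69 (adjusted p = 0.0825). In the same list of ubiquitination and turnover genes, 1 of 33 probe sets passed (5 higher and 3 lower at an unadjusted p under 0.05). Mib1, which acts on ligands, differed by 0.79, with another tested probe set at 0.08, Nedd4 by 0.52, with others at 0.05 and 0.29, and Cbl by -0.26. Another ligase gene, Itch, differed by -0.71 on a probe set that is not its brightest (adjusted p = 0.0758). Among further T lineage targets 1 of 23 passed (6 higher and 2 lower at an unadjusted p under 0.05). Il7r, the interleukin 7 receptor, read 5.74 and 5.93 in Cre-positive mice, against 4.68 and 4.75 in Cre-negative mice, and rose by 1.12 ± 0.13 or 2.17-fold (limma adjusted p = 0.0374). Myc, the growth regulator that Notch1 induces in T cells, read 7.97 and 7.62 in Cre-positive mice and 6.09 and 6.52 in Cre-negative mice, a difference of 1.49 ± 0.20 that missed the threshold (adjusted p = 0.0508). The growth factor receptor gene Igf1r differed by 0.68, with its other probe sets between -0.02 and 0.89, and the cyclin gene Ccnd3 by -0.37, with its others at -0.84 and -1.01. With any 1 array left out, 0 of the 124 passed in limma, Dtx3l and Il7r included.

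**Figure D4:**
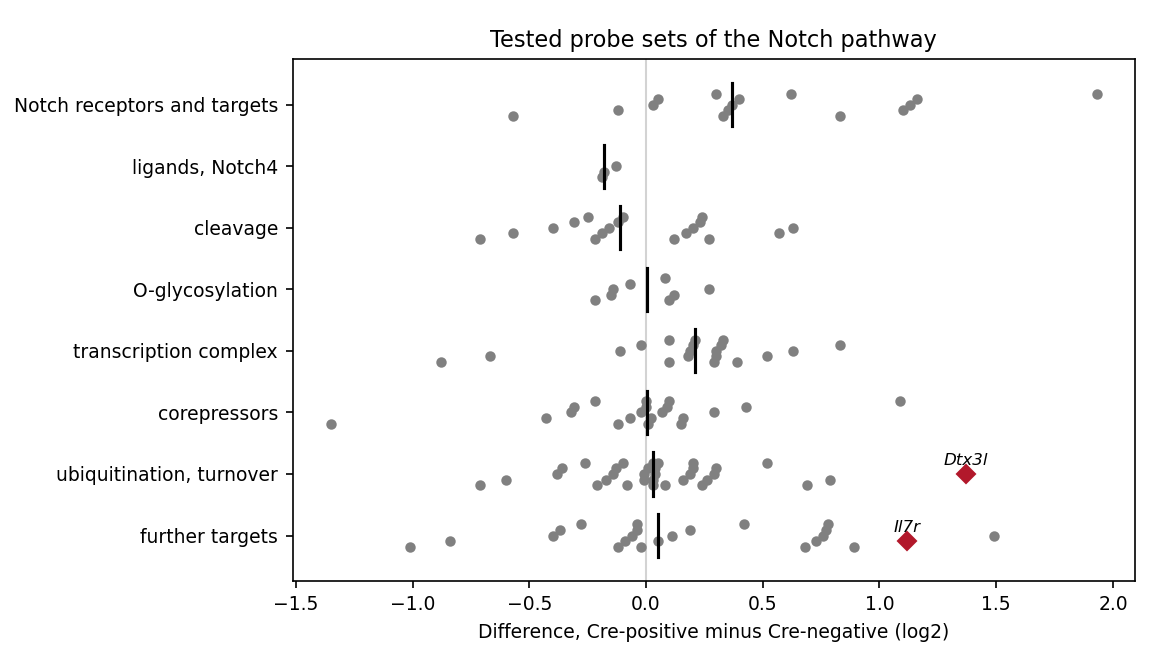
Difference, Cre-positive minus Cre-negative (log2, horizontal axis), of every tested probe set, by list, with a vertical bar at the median of each list. The 15 Notch receptor and target probe sets have a median of 0.37 and the transcription complex 0.21; red diamonds are the 2 probe sets that passed, in Dtx3l and Il7r.

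To find genes with a pattern like that of Notch1, the Euclidean distance between array values, each gene centred on its own mean over the 4 arrays, was taken over 11639 genes. The 5 nearest were C1qa (distance 0.0594), Tjp3 (0.0733), Kcnk6 (0.101), Tanc1 (0.103) and Pip4p2 (0.118), with differences of 1.03 to 1.11. C1qa, a complement gene of macrophages, read 6.22 and 5.75 in Cre-positive mice, against 4.87 and 4.89 in Cre-negative mice. With 4 arrays this likeness means only that these genes had nearly the same difference and the same Cre-positive array on top.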

How the data were processed

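Gene expression in double positive thymocytes of 4 mice, 2 per group, was measured on Affymetrix mouse arrays. The deposited table holds log2 signals that the authors made with RMA (background subtraction, normalization between arrays, summary per probe set), per the submitters' processing notes, which name no version; base 2 is taken because RMA returns it. Values ran from 2.18 to 14.4. Steps before this table were not varied, and the number of arrays, 2 per group, limits the precision.

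Probe sets were named through the platform annotation: 34945 had 1 symbol, 932 several and 9160 none; none of those with several held a member's symbol. All 10 members kept their symbols in RefSeq by Entrez identifier. Probe sets with 1 symbol and a mean at or above the 40th percentile (4.76) were tested with limma 3.58.1 in R 4.3.3 (lmFit, eBayes, two-sided), Cre-positive minus Cre-negative, with Benjamini-Hochberg adjustment over all 20967 and a threshold of 0.05. Residual degrees of freedom were 2, with a prior of 3.55; intervals are moderated and cover 95%. A second fit used each gene's brightest probe set. With 2 arrays a group the smallest exact permutation p is 0.333, so that test was not used. The procedure was tested on simulated data with 20967 probe sets. There limma recovered 24 of 100 planted differences of 1 and 92 of 100 of 2, with 9 false calls among 125.

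Named were Ikzf1, all members, in each pathway list the called probe sets and up to 4 genes with the smallest p on their brightest probe set, and the 5 genes nearest to Notch1. Other probe sets of named genes are given where they differ most. Adam17, Kat2b, Snw1, Crebbp and Itch, low in p on a dimmer probe set, and the marker genes given with values were chosen after their values were seen. The members and lists were chosen with earlier results of these data known. Alternatives varied the filter, scaling, variance prior, array weights, probe set choice and a block, and left out each array. Figures were drawn with matplotlib 3.10.9.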

Additional observations from a re-analysis of the deposited data

How the results depend on the processing

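No member passed in the comparison of probe sets, where those nearest the threshold moved across it. In limma, 1 member probe set passed without the filter (Notch2, adjusted p = 0.0499) and 1 with a robust prior (Notch2, 0.0482). With a variance trend 2 passed (Notch2, 0.0475, and Ptcra, 0.0498), and 2 with probe sets of no or several symbols included (Notch2 and Ptcra). With any single array left out, array weights, arrays centred on their median, the filter at the 60th percentile, or without multi-transcript probe sets (suffixes _x_at, _s_at and _a_at), 0 passed. In the comparison of genes Notch2 passed (0.0444), and it did so under the other settings run except the mean of all probe sets and with an array left out. Ptcra passed there without the filter (0.0482), centred (0.0491), with a trend (0.0411), with a robust prior (0.0425) and with the mean (0.0475). Notch1 passed with a trend (0.0451), and Dtx1 passed without Cre-positive sample 1 (0.0262) but differed by -0.57 without multi-transcript probe sets. Over all probe sets the count of 182 was 105 with the 60th percentile, 302 with a trend and 297 with a robust prior. It was 106 without multi-transcript probe sets and 736 (295 higher, 441 lower) with probe sets of no or several symbols included. The 160 genes called by their brightest probe set were 90 with the 60th percentile, 245 with a robust prior and 104 without multi-transcript probe sets. The 2 called probe sets of the pathway lists were 1 with the 60th percentile and 4 with a robust prior. They were 8 when probe sets of no or several symbols were tested as well. The causes were not tested.

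With 1 array left out, the lone array of its group is assumed to vary like the other pair. The calls over all probe sets then numbered 21 and 4 without Cre-negative samples 1 and 2, and 7 and 48 without Cre-positive samples 1 and 2; for genes they numbered 14, 3, 43 and 99 in that order, and for the pathway lists 0 each time. Differences of Notch1 (1418634_at) ran from 0.84 to 1.37, of Notch2 from 0.79 to 0.86, of Ptcra from 0.99 to 1.33 and of Hes1 from 0.37 to 0.86. The sign turned for Nrarp (-0.45 to 0.54 and -0.23 to 0.29) and for Trib2 1426641_at (-0.29 to 0.89), and Nrarp 1417986_at was -0.0021 once arrays were centred. Of 184 values of single member probe sets under an alternative, 168 kept their direction and side of the threshold, 10 newly passed and 6 turned sign.

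Sample numbers 1 and 2 occur in both groups, but each is a separate mouse and nothing in the labels pairs them; the deviations of the samples numbered 1 correlated at 0.154 over 20967 probe sets. With the number as a replicate block, 1475 probe sets, 821 genes, 20 probe sets of the pathway lists and 4 member probe sets (Notch1 1418634_at, Notch2 1455556_at, Ptcra and Dtx1 1425822_a_at, adjusted p from 0.0184 to 0.0259) passed, and by gene the same 4 did (0.0118 to 0.0186).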
